A study of Mus musculus with 8 samples.

Results

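The synaptic vesicle release machinery was followed as 44 member genes, chosen by gene symbol from the 32285 genes of the deposited count tables. All 44 symbols were found. Their counts were described by neuron type, with glia as the reference, and by genotype. The members cover the calcium sensors (synaptotagmins and Doc2 proteins), the SNARE proteins and the tomosyns that regulate them, the Munc13, RIM and active zone proteins, the complexins, and the proteins of the vesicle itself.

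Single-nucleus RNA was counted from the cerebral cortex of 8 C57BL/6J mice at postnatal day 25, with the medial cortex removed. The libraries labelled WT came from 2 males and 2 females, and those labelled Chd8het, carrying 1 mutant copy of the chromatin remodeller gene Chd8, likewise came from 2 males and 2 females. Each library came from 1 animal, and WT and Chd8+/- animals were matched in pairs for litter and sex. Replicate 1 of every group was single-indexed and replicate 2 dual-indexed. Which Chd8 allele the mice carried is not stated by the labels.

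In an exocytotic vesicle, a SNARE on the vesicle (a VAMP protein, also called synaptobrevin) pairs with syntaxin 1 and SNAP25 on the plasma membrane. Munc13 and RIM proteins prepare the vesicle for fusion at the active zone, complexin holds and assists the assembled SNAREs, and synaptotagmin triggers fusion when calcium enters. Most of these functions are served by several related genes, and neurons of different types are known to use different ones.

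The libraries held 69503598 to 98132783 unique molecular identifiers (UMIs) in 9140 to 14280 barcodes each, and 77890 nuclei were kept. Of these, 37833 (48.6%) passed a gate that assigned each nucleus to a type by its own score over marker genes, none of which is a member. From it, 11 neuron types and 4 glial types were compared, each with at least 20 nuclei in every library and at most 50% of its nuclei in clusters of another name. Car3 and claustrum neurons (671 nuclei) were left out because 87.2% of them lay in such clusters. Vascular cells (484) and striatal projection neurons (202) were gated but not compared. L6b neurons (233 nuclei) and Vip interneurons (347) were the smallest of the compared types, and 32.2% of the nuclei gated as L6b lay in clusters that carry another name. All listed markers of each type were raised at least 2-fold in it, except 1 of 5 in Lamp5 and Reln interneurons; the gate used these markers, so this is a description and does not check the types. A total of 1149 barcodes were found in more than 1 library. Chd8 itself averaged 78.2 ± 3.35 counts scaled to 1000000 UMIs (CPM; SD, n = 4) over the gated nuclei of the libraries labelled WT and 79.8 ± 5.65 CPM in those labelled Chd8het, a difference within the spread (exact permutation test, two-sided, p = 0.714). With the allele not described, this count does not check the genotype, and the genotypes below are those of the labels.

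The promoters below are those of Syt2, Vamp1 and Cplx1, each highest, among neuron types, in Pvalb interneurons, the fast-spiking inhibitory cells. Syt3 and Sv2a were also highest there, with ranges over neuron types of 2.51-fold and 2.34-fold, and their promoters are not shown. Each is the 250 bases before the annotated start in RefSeq on GRCm38.p6, read 5′ to 3′ on the gene's strand. Capitals mark matches on either strand to GGGCGG (the GC box), AAGGTCA (a site bound by nuclear receptors such as the ERR proteins) or CAGGTG (an E-box). The motifs were chosen after these sequences had been inspected.
Syt2, chr1:134646362-134646611, plus strand: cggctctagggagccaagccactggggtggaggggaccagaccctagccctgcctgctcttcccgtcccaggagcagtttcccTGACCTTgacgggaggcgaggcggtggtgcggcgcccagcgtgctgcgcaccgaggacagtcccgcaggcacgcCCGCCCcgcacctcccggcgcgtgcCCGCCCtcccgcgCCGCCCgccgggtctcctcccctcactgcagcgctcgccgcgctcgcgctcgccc
Vamp1, chr6:125215331-125215580, plus strand: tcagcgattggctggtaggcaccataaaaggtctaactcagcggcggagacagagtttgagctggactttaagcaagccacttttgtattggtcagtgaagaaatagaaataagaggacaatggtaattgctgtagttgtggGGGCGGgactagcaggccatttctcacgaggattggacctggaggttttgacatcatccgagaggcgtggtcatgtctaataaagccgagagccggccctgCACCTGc
Cplx1, chr5:108550028-108550277, minus strand: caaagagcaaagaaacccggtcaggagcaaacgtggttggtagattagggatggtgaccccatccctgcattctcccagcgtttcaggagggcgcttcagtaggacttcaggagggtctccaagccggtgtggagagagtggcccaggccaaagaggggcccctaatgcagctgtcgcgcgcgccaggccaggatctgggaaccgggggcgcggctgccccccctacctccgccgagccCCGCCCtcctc
The Syt2 stretch held 3 GC boxes and 1 AAGGTCA match and no CAGGTG. The Vamp1 stretch held 1 GC box and 1 CAGGTG, and the Cplx1 stretch held 1 GC box. Among 32851 promoter stretches of the same length, 32.7% held a GC box, 4.08% an AAGGTCA match and 17.2% a CAGGTG match. RefSeq lists 2 starts for Syt2, and counts at the 3′ end do not tell which was used. Promoters of 33 of the 44 members were in the table.

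Among the calcium sensors, Syt2, a fast synaptotagmin, marked Pvalb interneurons. Its level there was 169, 166, 158 and 163 CPM in WT male 1, WT male 2, WT female 1 and WT female 2, and 158, 186, 178 and 146 CPM in the matching Chd8het libraries. In L5/6 intratelencephalic (IT) neurons, the type where it was lowest, it lay between 6.05 and 11.4 CPM in all 8 libraries. The groups of values did not overlap; here and below, the highest and lowest types were picked by these levels, so that their separation is a description and not a test. Against Sst interneurons, where Syt2 averaged 11.6 ± 6.2 CPM (SD, n = 8), the log2 difference was 3.81 ± 0.17 (SE; edgeR quasi-likelihood test, adjusted p = 5.3e-41). L5 extratelencephalic (ET) neurons held the next highest level, 41.1 ± 6.7 CPM.

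Syt1, the main fast calcium sensor of forebrain synapses, was abundant in every neuron type, from 2888 ± 58.7 CPM in Pvalb interneurons to 5003 ± 717 CPM in L6b (SD, n = 8). Syt2 therefore held 5.42% ± 0.40 of the Syt1 and Syt2 UMIs in Pvalb interneurons, between 4.83% and 6.04% in the 8 libraries, against 0.335% ± 0.18 in Sst interneurons. A share of this kind compares types and not the 2 genes with each other, because UMI counts from nuclei also depend on gene length.

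Syt6, a relative of Syt3 and Syt10, stood out in L6 corticothalamic (CT) neurons. It measured 110, 196, 79.5 and 175 CPM in the 4 WT libraries (males 1 and 2, then females 1 and 2) and 105, 253, 102 and 95.7 CPM in the 4 Chd8het libraries. The spread in L6 CT was wide, but its lowest library was far above the highest in L2/3 IT (3.53 CPM). In the contrast of deep non-IT types (L5 ET, L5/6 near-projecting (NP), L6 CT and L6b) with IT types, Syt6 was higher by 2.60 ± 0.20 on the log2 scale (adjusted p = 2.6e-22), with L6b at 11.97 ± 8.6 CPM, L5/6 NP at 5.28 ± 3.5 CPM and L5 ET at 2.96 ± 1.9 CPM, all far below L6 CT. Syt6 was also higher in interneurons than in excitatory types when the types of each class were weighted equally on the log scale (1.21 ± 0.14, adjusted p = 4.8e-13), with 37.1 ± 15 CPM in Vip interneurons and 21.5 ± 7.7 CPM in Sst interneurons. With types taken from clusters that difference was 0.63, under the 2-fold limit.

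Syt7, the slow high-affinity sensor of facilitation and asynchronous release, had 417, 448, 411 and 427 CPM in WT libraries and 348, 475, 382 and 427 CPM in Chd8het libraries in L6 CT. In Vip interneurons it lay at 63.0 to 121 CPM, without overlap with L6 CT, and it was lower in interneuron types than in excitatory types by a log2 difference of -1.51 ± 0.04 (adjusted p = 1.8e-68). Syt10, a sensor linked to IGF1 secretion in olfactory neurons, had a split pattern. Its L6 CT levels were 28.0, 15.0, 38.0 and 24.8 CPM in WT libraries and 22.2, 15.1, 25.5 and 36.7 CPM in Chd8het libraries, against 0 to 2.51 CPM in Pvalb interneurons. It averaged 25.6 ± 8.6 CPM in L6 CT and 23.6 ± 9.4 CPM in Vip interneurons, and 1.25 ± 0.76 CPM in Pvalb and 2.02 ± 1.5 CPM in Lamp5 and Reln interneurons. Vip exceeded Lamp5 and Reln interneurons in Syt10 by 3.50 ± 0.46 (log2, adjusted p = 1.2e-10).

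Syt17, a synaptotagmin-like protein without a transmembrane domain, was highest in L2/3 IT neurons, with 69.0, 109, 97.6 and 114 CPM in WT libraries and 71.6, 113, 81.4 and 112 CPM in Chd8het libraries. The single-indexed L2/3 IT libraries (replicate 1) all lay below the dual-indexed ones (replicate 2). L6 CT neurons held 2.93 to 7.98 CPM. Every L2/3 IT library exceeded every L6 CT library. Syt17 was lower in deep non-IT than in IT types (log2 difference -1.14 ± 0.08, adjusted p = 9.6e-26). Syt5, a vesicular synaptotagmin, reached 50.1, 46.1, 48.3 and 40.04 CPM in WT libraries and 39.0, 56.3, 46.0 and 35.7 CPM in Chd8het libraries in L6 CT, all above the 5.86 to 14.4 CPM of Pvalb interneurons. The synaptotagmins with smaller ranges or lower levels were Syt3, Syt4, Syt9, Syt11 and Syt13. Syt11, which does not bind calcium and acts in membrane traffic, was higher in oligodendrocytes (297 ± 73 CPM) than in any neuron type, the highest of which was Vip at 153 ± 53 CPM. Syt9 was highest in oligodendrocyte precursors (OPC), at 26.4 ± 3.1 CPM. Doc2a and Doc2b, soluble calcium sensors of spontaneous release, were scarce, with no neuron type above 7.45 CPM.

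**Figure D1:**
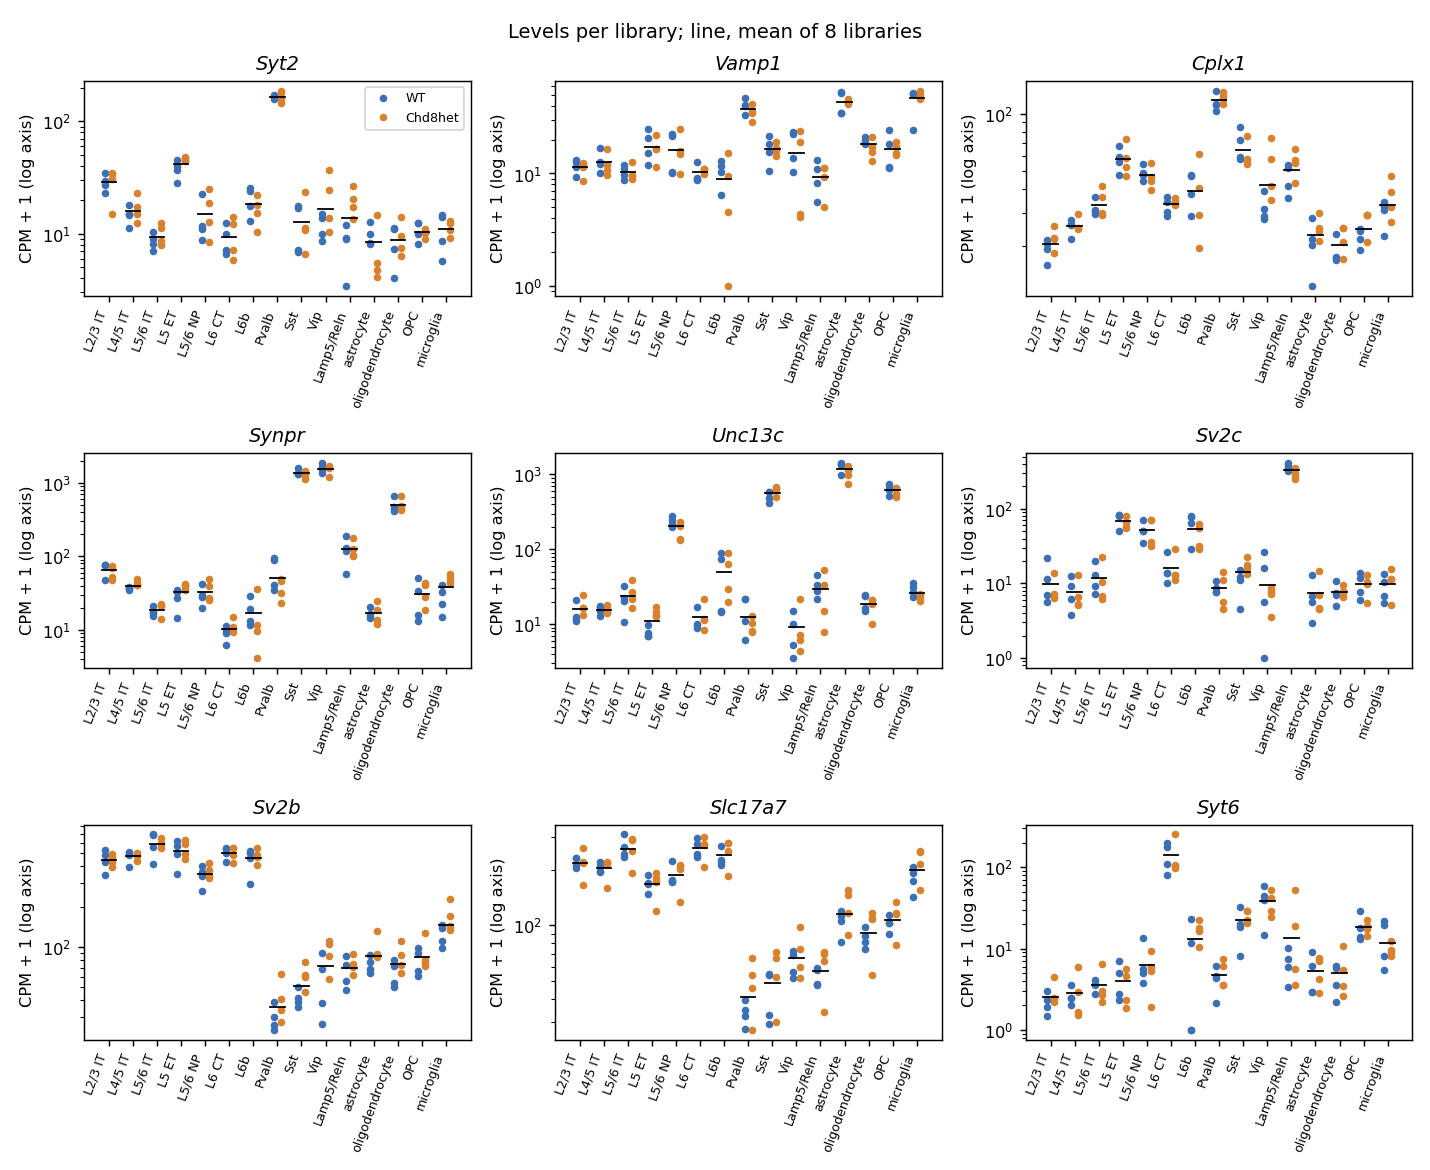
CPM + 1 on a log axis for 9 members in each gated type. Points are libraries (blue WT, orange Chd8het) and the line is the mean of 8 libraries. Syt2 in Pvalb interneurons lies between 146 and 186 CPM, and Sv2c in Lamp5 and Reln interneurons between 251 and 415 CPM.

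Among the SNARE genes, Vamp1 followed Syt2. VAMP1 is the synaptobrevin of fast and peripheral synapses, and VAMP2 is that of most forebrain synapses. In Pvalb interneurons Vamp1 measured 32.3, 38.7, 39.6 and 46.0 CPM in the WT libraries (males, then females) and 33.3, 27.6, 40.5 and 34.7 CPM in Chd8het. In L6b it ran from 0 to 14.1 CPM, on few nuclei. Pvalb exceeded Sst interneurons by 1.25 ± 0.15 (log2, adjusted p = 2.5e-12), and Vamp1 held 51.7% ± 8.0 of the Vamp1 and Vamp2 UMIs in Pvalb against 28.1% ± 7.9 in Sst. Vamp1 was also counted in glia. Astrocytes held 42.4 ± 6.9 CPM and microglia 45.7 ± 9.5 CPM, beside 36.6 ± 5.7 CPM in Pvalb interneurons. Vamp2, the other part of the share, averaged 30.1 CPM (L5 ET) to 50.5 CPM (Vip) in neuron types. It was higher in glia, from 52.5 CPM in OPC to 92.9 CPM in microglia.

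Stx1a, which encodes the plasma membrane syntaxin of neuronal exocytosis, was higher in excitatory than in interneuron types. L4/5 IT neurons had 154, 170.1, 140.3 and 162 CPM in WT libraries and 152, 194, 165 and 143 CPM in Chd8het libraries. Pvalb interneurons had 11.8 to 27.0 CPM, with no overlap, and interneuron types were lower by a log2 difference of -1.83 ± 0.06 (adjusted p = 1.9e-59). Snap25, the third SNARE, varied much less, from 537 ± 67 CPM in Vip to 1007 ± 68.7 CPM in L6 CT. The tomosyn genes Stxbp5 and Stxbp5l, whose products compete with VAMP for the other SNAREs, showed a small but regular shift. Stxbp5l held 72.3% ± 1.7 of their UMIs over interneuron types and 79.2% ± 1.2 over excitatory types, lower in interneurons in 8 of 8 libraries.

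Munc13 genes, whose products prime vesicles, showed a strong choice of isoform. Unc13c, the Munc13-3 gene, known from the cerebellum, measured 587, 483, 588 and 416 CPM in the WT libraries and 657, 493, 636 and 669 CPM in those labelled Chd8het in Sst interneurons. In Vip interneurons it ran from 2.53 to 20.4 CPM, and in Pvalb it averaged 11.5 ± 6.1 CPM. The log2 difference of Pvalb minus Sst was -5.60 ± 0.20 (adjusted p = 1.2e-50). Unc13c held 73.4% ± 6.4 of the Unc13a, Unc13b and Unc13c UMIs in Sst interneurons and 5.07% ± 2.8 in Pvalb. L5/6 NP neurons held 204 ± 51 CPM, far above the other excitatory types. Astrocytes held 1161 ± 240.2 CPM and OPC 611 ± 83 CPM, and Unc13c was the single member at least 2-fold lower in neuron types than in glia (log2 difference -1.98 ± 0.12, adjusted p = 5.8e-33).

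Unc13b, the Munc13-2 gene, peaked in L5/6 NP, at 332, 314, 349 and 309 CPM in WT libraries and 394, 246, 413 and 277 CPM in Chd8het libraries. It was lowest in Vip, at 27.8 to 79.1 CPM, and no library of Vip reached any of L5/6 NP. Interneuron types were lower than excitatory types by a log2 difference of -1.48 ± 0.05 (adjusted p = 5.8e-57). Unc13a, the Munc13-1 gene, was nearly flat over neuron types, from 109 ± 36 CPM in Vip to 169 ± 39 CPM in L6 CT.

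Of the RIM and RIM-binding genes, Rims1 was highest in Lamp5 and Reln interneurons (3485 ± 394.5 CPM) and lowest in L5 ET (1106 ± 90.9 CPM). Rimbp2, which links calcium channels to RIM, shared that highest type, with 467, 537, 555 and 573 CPM in WT libraries and 445, 537, 514 and 576 CPM in Chd8het libraries. In Vip it had 83.9 to 166 CPM. Vip was lower than Lamp5 and Reln interneurons by log2 differences of -2.21 ± 0.10 for Rimbp2 (adjusted p = 9.8e-40) and -1.498 ± 0.079 for Rims1 (adjusted p = 3.7e-35). Rims3, which encodes a short RIM with only the C-terminal domain, had 61.3, 79.3, 40.1 and 51.6 CPM in WT libraries and 53.8, 110.5, 58.5 and 40.6 CPM in Chd8het libraries in L4/5 IT, against 2.87 to 7.17 CPM in Pvalb. Among the scaffold genes, interneuron types were lower than excitatory types by log2 differences of -0.85 ± 0.04 for Bsn (adjusted p = 1.0e-42) and -0.95 ± 0.04 for Erc2 (adjusted p = 1.1e-49), both under the 2-fold limit. Pclo (Piccolo) held 86.1% ± 1.3 of the Bsn (Bassoon) and Pclo UMIs over interneuron types and 75.6% ± 3.2 over excitatory types, and Erc1 held 14.1% ± 0.89 of Erc1 and Erc2 UMIs over interneuron types and 9.62% ± 0.77 over excitatory types.

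The complexin genes differed in where they were highest. Cplx1, the complexin of fast synapses, measured 110, 112, 103 and 131 CPM in the WT libraries and 119, 129, 123 and 112 CPM in those labelled Chd8het in Pvalb interneurons, and 15.0 to 24.7 CPM in L2/3 IT. Cplx2 took the opposite course, with 49.5, 97.1, 89.2 and 129 CPM in WT libraries and 104, 107, 115 and 84.0 CPM in Chd8het libraries in Vip, and 5.53 to 22.0 CPM in Pvalb. Neither gene's pair of ranges overlapped. Cplx1 held 89.3% ± 2.9 of complexin UMIs in Pvalb interneurons, 56.8% ± 5.3 in Sst and 22.4% ± 4.7 in L2/3 IT.

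Cplx3, the membrane-anchored complexin first studied at ribbon synapses, was highest in L6b and in Lamp5 and Reln interneurons. L6b neurons held 41.4, 17.6, 8.00 and 22.0 CPM in WT libraries and 34.2, 18.9, 24.8 and 28.3 CPM in Chd8het libraries, a wide spread on few nuclei, and L4/5 IT neurons, the lowest type, held 0 to 1.62 CPM. Cplx3 averaged 15.1 ± 4.5 CPM in Lamp5 and Reln interneurons, while the other 9 neuron types averaged 0.499 to 1.31 CPM. Lamp5 and Reln exceeded Vip interneurons in Cplx3 (log2 difference of Vip minus Lamp5 and Reln -3.56 ± 0.58, adjusted p = 1.3e-07). The deep non-IT types exceeded the IT types by 1.21 ± 0.27 (adjusted p = 6.4e-05). That value rests on L6b: under the stricter gate, where L6b had too few nuclei to be fitted, it was -0.29 (adjusted p = 0.604).

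**Figure D2:**
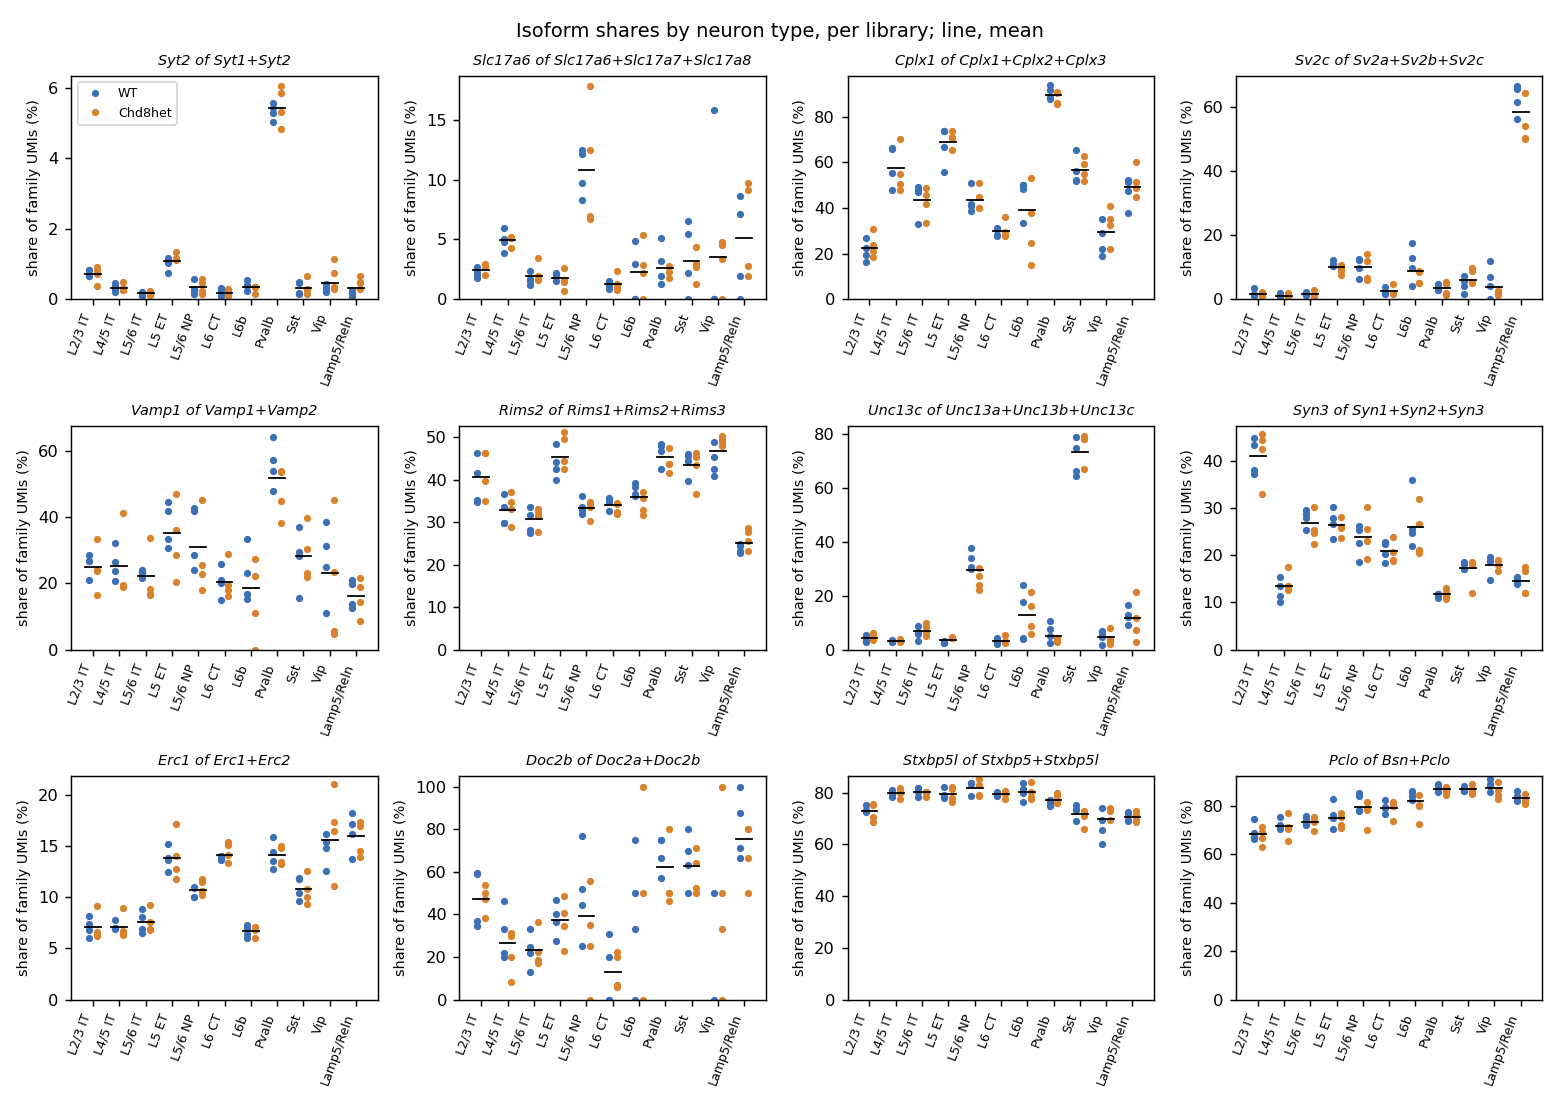
Share of a family's UMIs held by 1 member, in percent, for 12 families and 11 neuron types. Points are libraries (blue WT, orange Chd8het) and lines are means over 8 libraries, with no line for Doc2b in L6b and Vip, where a library had no Doc2 UMI. Unc13c holds 73.4% in Sst interneurons and Sv2c 58.4% in Lamp5 and Reln interneurons.

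Among the vesicle proteins, the SV2 glycoprotein genes differed in pattern. In L5/6 IT neurons Sv2b had 559.8, 691, 413 and 679.5 CPM in WT libraries and 591, 646, 549 and 584 CPM in Chd8het libraries. Pvalb interneurons had 23.0 to 61.5 CPM, and interneuron types were lower by a log2 difference of -3.27 ± 0.05 (adjusted p = 5.0e-88). Sv2c measured 353, 385, 317 and 415 CPM in the WT libraries and 251, 265, 299 and 357 CPM in those labelled Chd8het in Lamp5 and Reln interneurons, and 2.82 to 11.9 CPM in L4/5 IT. Vip was lower than Lamp5 and Reln interneurons by a log2 difference of -5.29 ± 0.28 (adjusted p = 2.5e-34). Sv2c also reached 68.3 ± 14 CPM in L5 ET, 52.9 ± 22 CPM in L6b and 51.0 ± 17 CPM in L5/6 NP, and was higher in the deep non-IT than in the IT types by 2.17 ± 0.11 (adjusted p = 2.9e-36). Sv2a ran from 76.0 ± 9.4 CPM in L2/3 IT to 178 ± 13 CPM in Pvalb and was higher in interneuron than in excitatory types by 0.63 ± 0.04 (log2, adjusted p = 8.7e-32), under the 2-fold limit.

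Synpr (synaptoporin, a relative of synaptophysin) separated interneuron types from each other. It measured 1511, 1364, 1895 and 1643 CPM in the WT libraries and 1188, 1645, 1680 and 1579 CPM in those labelled Chd8het in Vip interneurons, and 1120 to 1605 CPM in Sst. In L6 CT it ran from 5.21 to 13.7 CPM. Pvalb interneurons averaged 50.3 ± 27 CPM, and the log2 difference of Pvalb minus Sst was -4.78 ± 0.16 (adjusted p = 7.1e-54). Oligodendrocytes held 504 ± 96 CPM of Synpr, or 1.80 ± 0.37 UMIs per nucleus, against 0.0464 ± 0.015 in astrocytes.

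Syn3, the least abundant synapsin in most adult neurons, had 411, 339, 420.3 and 364 CPM in WT libraries and 384, 316, 429.8 and 439 CPM in Chd8het libraries in L2/3 IT, all above the 63.3 to 98.5 CPM of Pvalb. Syn3 held 41.2% ± 4.5 of synapsin UMIs in L2/3 IT and 11.7% ± 0.75 in Pvalb. Over interneuron types its share was 15.4% ± 0.96, against 25.5% ± 2.0 over excitatory types.

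The vesicular glutamate transporters load the vesicle. Slc17a7 (VGLUT1) had 293, 234, 275 and 240.0 CPM in WT libraries and 275, 269.8, 299.8 and 204 CPM in Chd8het libraries in L6 CT. Pvalb interneurons had 26.4 to 65.6 CPM, and the log2 difference of interneuron minus excitatory types was -2.21 ± 0.04 (adjusted p = 7.8e-80). Slc17a6 (VGLUT2), the transporter of thalamic and many subcortical neurons, had 23.2, 26.9, 28.4 and 22.3 CPM in WT libraries and 18.6, 29.6, 18.7 and 32.2 CPM in Chd8het libraries in L5/6 NP, and 0.488 to 1.72 CPM in Pvalb. No Pvalb library reached an L5/6 NP library. Slc17a8 (VGLUT3) was highest in L5/6 NP, at 35.6, 22.8, 25.7 and 32.4 CPM in the WT libraries and 48.5, 6.21, 41.3 and 16.4 CPM in those labelled Chd8het. Its level in L5 ET ran from 0 to 0.906 CPM. In Slc17a8 the deep non-IT types exceeded the IT types by 2.76 ± 0.43 (adjusted p = 1.1e-08), but the deep types differed among themselves, at 28.6 ± 14 CPM in L5/6 NP, 4.99 ± 4.8 CPM in L6b, 1.59 ± 0.48 CPM in L6 CT and 0.280 ± 0.39 CPM in L5 ET.

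**Figure D3:**
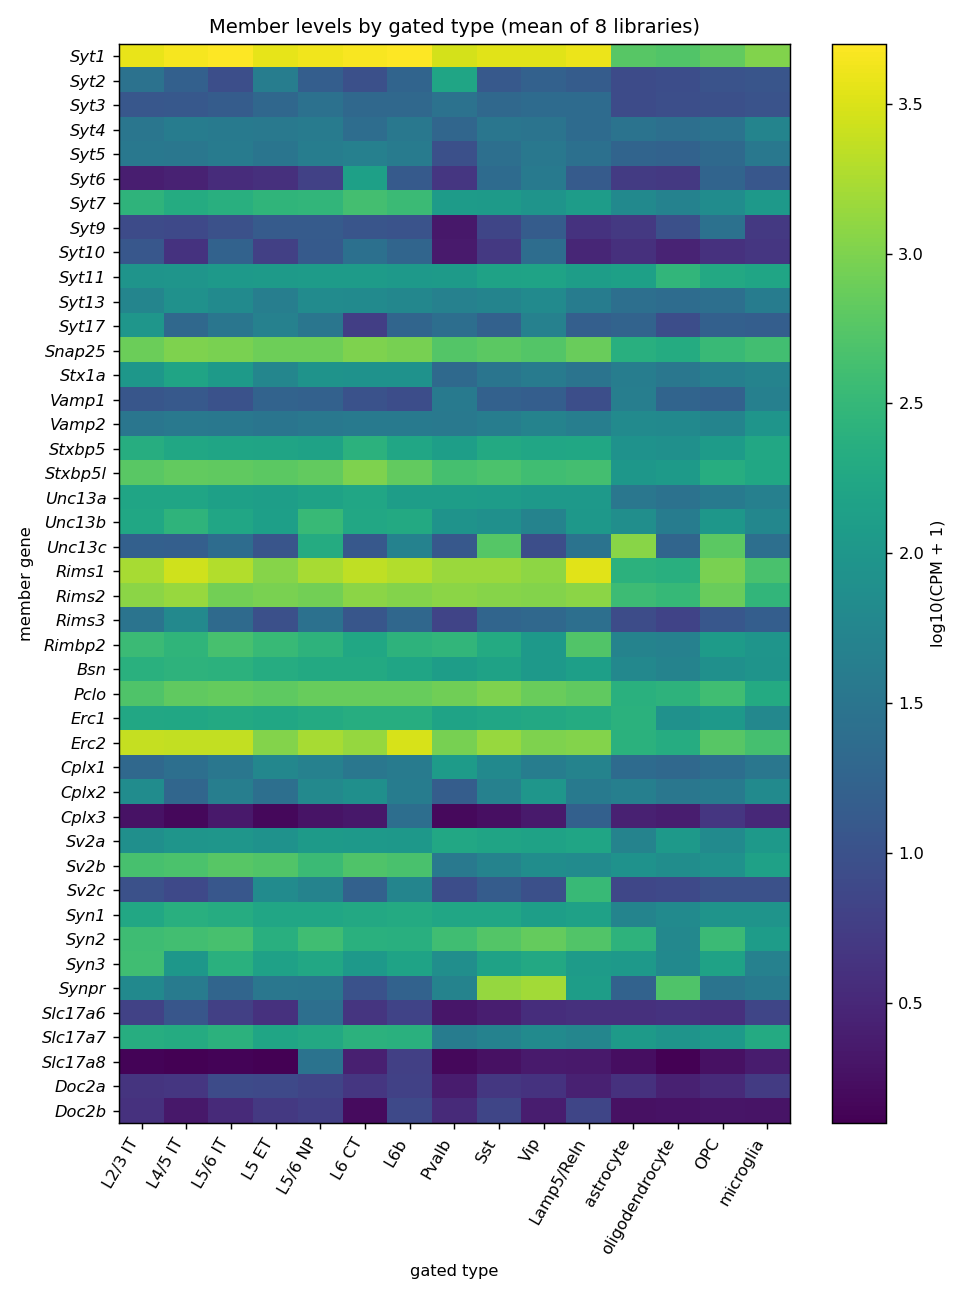
Mean level of each of the 44 members (rows) over 8 libraries in each of the 15 gated types (columns), coloured by log10(CPM + 1). Syt1, at 2888 CPM or more in every neuron type, is the brightest row over neuron types, and Unc13c is brighter in astrocytes, at 1161 CPM, than in any neuron type.

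Counted over all members, 11 of 44 differed at least 2-fold between interneuron and excitatory types (edgeR, adjusted p under 0.05), where 14.4% of the 14644 genes tested did. Of the members 2 were higher in interneurons and 9 lower, beside 6.95% and 7.47% of all genes. The 9 lower were Sv2b, Slc17a7, Slc17a6, Stx1a, Syt10, Syt7, Unc13b, Syt9 and Doc2a. Not every interneuron type was low in each: among neuron types Syt9 was highest in Vip (12.8 ± 8.4 CPM) and lowest in Pvalb (1.13 ± 0.84 CPM). Between Pvalb and Sst interneurons 12 of 44 differed at least 2-fold, against 10.9% of all genes. Of these, 2 were higher in Pvalb (Syt2 and Vamp1, against 4.12% of all genes) and 10 lower (against 6.77%). Between Vip and the Lamp5 and Reln interneurons 12 did, against 8.54%, with 6 higher (against 4.56%) and 6 lower (against 3.98%). Of those 6 lower, Doc2b (-1.86, edgeR, adjusted p = 0.0409) was not called when any 1 of 6 libraries (the 4 WT, Chd8het male 1 or Chd8het female 2) was left out, with an adjusted p of up to 0.136, and Unc13c (-1.755, adjusted p = 0.0065) differed by -0.15 with types taken from clusters. Between deep non-IT and IT excitatory types 6 did, against 5.28%, with 4 higher (against 2.57%) and 2 lower (against 2.7%). All 44 members passed the filter on low counts in these fits. The median absolute log2 difference of the members was 0.54 between interneuron and excitatory types and 0.56 between Pvalb and Sst, beside 0.31 and 0.30 over all genes tested. It was 0.38 between Vip and the Lamp5 and Reln interneurons and 0.28 between deep non-IT and IT types, beside 0.33 and 0.17.

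Another 45 genes of the release pathway, such as Nsf, Rab3a and Syp, were counted in the same fits, where 39 passed the filter. At least 2-fold differences were found in 7 of 39 between interneuron and excitatory types (4 higher, 3 lower), 8 between Pvalb and Sst (2 higher, 6 lower), 4 between Vip and the Lamp5 and Reln interneurons (1 higher, 3 lower) and 2 between deep non-IT and IT types (both higher).

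Isoform shares were compared in 12 families, which were chosen with earlier results of these data known. No shares were computed for families of other genes, so the counts of shares below have no background. For single genes with no fold limit, 59.8% of the 14644 tested differed between interneuron and excitatory types (edgeR, adjusted p under 0.05). Between Pvalb and Sst interneurons 34.8% did. Over interneuron types against excitatory types, 11 of 12 shares differed in the same direction in all 8 libraries (exact sign-flip test over libraries, two-sided, p = 0.0078, the smallest that 8 libraries can give, adjusted p = 0.0104 over 24 tests). For 5 of the 11, a single interneuron type stood well above the other 3: the Syt2 share was 5.42% in Pvalb and 0.331% to 0.469% in the other types, against 0.46% over excitatory types, Sv2c was 58.4% in Lamp5 and Reln and 3.56% to 6.05% elsewhere (excitatory types 5.11%), Unc13c was 73.4% in Sst and 4.55% to 11.7% elsewhere (9.02%), Vamp1 was 51.7% in Pvalb and 16.2% to 28.1% elsewhere (25.4%), and Cplx1 was 89.3% in Pvalb and 29.6% to 56.8% elsewhere (43.5%). The exception among the 12 was Slc17a6, at 3.63% ± 2.0 and 3.64% ± 0.78. Between Pvalb and Sst interneurons 8 of 12 differed, all but Slc17a6, Rims2, Doc2b and Pclo. Sv2c was the weakest of the 8, at 3.56% ± 1.4 in Pvalb and 6.05% ± 2.6 in Sst, lower in 7 of 8 libraries (adjusted p = 0.0395). The Doc2b share rested on as few as 2 Doc2 UMIs in a library and type, and was averaged without L6b and Vip, where a library had none.

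Against glia, 27 of 44 members were at least 2-fold different in neuron types where 29.9% of genes were, 26 of them higher (against 14.7%) and 1 lower (against 15.2%). The median log2 difference was 1.24 over the members and -0.06 over all genes. In droplet data, free RNA adds UMIs to nuclei that do not express a gene. Slc17a7 gave 0.326 ± 0.065, 0.319 ± 0.061, 0.331 ± 0.044 and 0.311 ± 0.071 UMIs per nucleus (SD, n = 8) in astrocytes, oligodendrocytes, OPC and microglia, almost the same in all 4, although its CPM ranged from 90.3 ± 21 in oligodendrocytes to 197 ± 40 in microglia. Interneuron types held 0.382 to 0.4657 Slc17a7 UMIs per nucleus and excitatory types 1.69 to 2.94. The median nucleus held 1461 UMIs in microglia and 2716 to 13442 in the other tested types. The part of free RNA in the Slc17a7 UMIs of glia and interneurons was not tested. Unc13c gave 3.28 ± 0.51 UMIs per nucleus in astrocytes and 1.92 ± 0.30 in OPC, against 0.0646 ± 0.021 in oligodendrocytes and 0.0391 ± 0.0062 in microglia.

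The study asked how loss of 1 copy of Chd8 changes expression in each cell type. In the main fit, no member was called between the libraries labelled Chd8het and WT in any type. Of 567 tests of a member in a type, 0 passed an adjusted p of 0.05 (edgeR with sex in the model), 21 had an unadjusted p under 0.05, and 18 of the 21 were higher in Chd8het, where 57.0% of the tests over all genes with such a p were. Over all genes the called share was 0% of 168260 tests, with 2.56% at an unadjusted p under 0.05. The DESeq2 Wald test called 0 members, with 14 member tests at an unadjusted p under 0.05, where 1.09% of all tests were. With no filter on low counts, edgeR called 2 of 660 member tests, beside 183 of 340516 tests over all genes. With a block for each pair of the same sex and replicate number, 38 tests of a gene in a type were called, 0 of them of members. In that fit 50 member tests had an unadjusted p under 0.05, where 5.81% of all tests did. In simulated L2/3 IT counts, the same fit recovered 84% of 2-fold increases and 24% of 1.5-fold increases. Only well-counted genes were changed in that simulation, which used a single dispersion for all genes and no effect of pair, sex or index type. Its rates therefore do not carry over to members with few UMIs or to libraries that deviate in pairs. Even there, changes of 1.5-fold or less could often have been missed. L2/3 IT nuclei held 5104641 to 8988974 UMIs per library. Recovery was not simulated in the other types, among them L6b (217247 to 424355 UMIs) and Vip (216288 to 395636 UMIs). Of the 45 other pathway genes, 0 of 552 tests passed and 11 had an unadjusted p under 0.05.

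The 6 tests with the smallest p are given as values. They were picked from 567 by that p, so a lack of overlap between their groups is a description and not a test. Overlap is not given for the other tests. Unc13c in L5 ET was at 5.89, 8.85, 6.69 and 6.03 CPM in the WT libraries and 11.8, 15.8, 11.7 and 13.6 CPM in those labelled Chd8het, on 13 to 35 UMIs each. The groups did not overlap, and the log2 change was 0.91 ± 0.23 (edgeR, adjusted p = 1.00). It was 0.078 under the stricter gate and 0.027 with types taken from clusters.

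Syt9, a calcium sensor with a role in striatal and secretory release, gave 2 of the 6. In L5/6 IT it measured 8.94, 4.31, 5.89 and 5.40 CPM in WT and 12.3, 14.7, 8.14 and 9.67 CPM in Chd8het, a log2 change of 0.87 ± 0.24 (edgeR, adjusted p = 1.00) that was 0.54 with types from clusters. In L6 CT it measured 6.18, 7.68, 10.6 and 7.76 CPM in WT and 11.2, 10.2, 13.9 and 15.1 CPM in Chd8het, a change of 0.64 ± 0.19 (edgeR, adjusted p = 1.00). Each Chd8het library was above its WT partner of the same sex and number, but the groups overlapped in both types.

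Syt2 in Lamp5 and Reln interneurons rested on 2 to 20 UMIs per library, with 2.40, 7.98, 11.02 and 8.18 CPM in WT and 25.4, 16.3, 19.2 and 12.5 CPM in Chd8het. These groups did not overlap (log2 change 1.25 ± 0.40, edgeR, adjusted p = 0.999). Sv2b in Sst interneurons was at 48.7, 34.4, 38.0 and 40.5 CPM in WT and 60.2, 76.3, 58.3 and 45.1 CPM in those labelled Chd8het, with overlap (0.52 ± 0.18, edgeR, adjusted p = 1.00; 0.31 with types from clusters). Syt1 in oligodendrocytes was at 398, 421, 546 and 494 CPM in WT and 534, 601, 596 and 652 CPM in Chd8het, again with overlap (0.33 ± 0.11, edgeR, adjusted p = 0.999). That change was 0.14 with doublets kept and 0.22 with types from clusters. All 4 pairs of a member differed in the same direction in 12.9% of the 567 tests (9.7% all higher and 3.17% all lower in Chd8het), where 13.8% of all genes with at least 80 UMIs in a type did (8.11% and 5.71%).

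**Figure D4:**
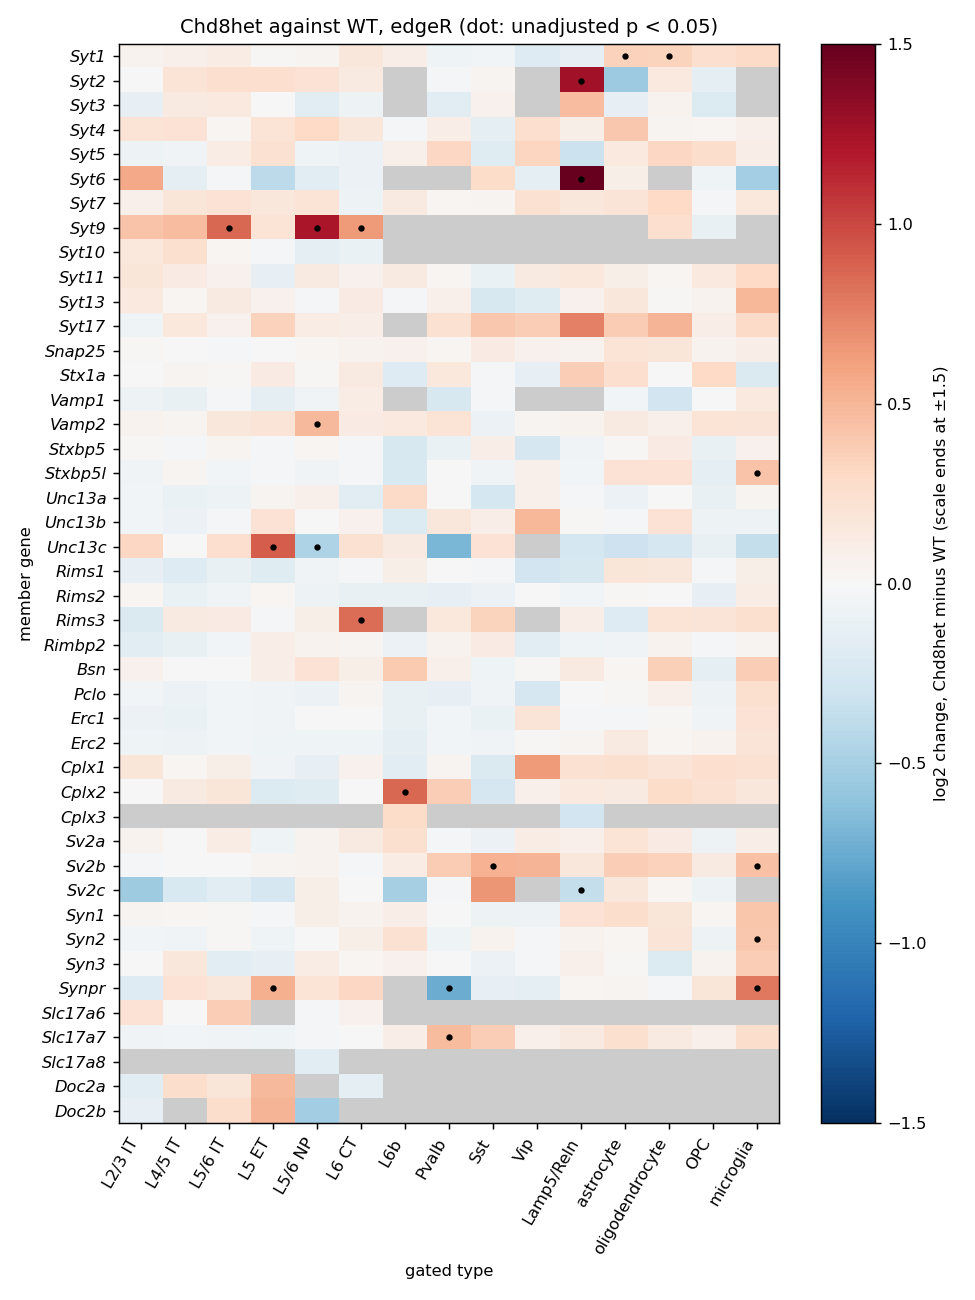
Log2 change of each member (rows) in each gated type (columns), Chd8het minus WT, from edgeR. Colours end at 1.5 in either direction, grey cells did not pass the filter on low counts, and dots mark the 21 tests with an unadjusted p under 0.05, none of which passed adjustment.

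In glia most members had a log2 change above 0: 30 of 34 tested in microglia, where 49.6% of all genes had one, 32 of 37 in oligodendrocytes (49.8%) and 28 of 37 in astrocytes (51.3%), but 19 of 38 in OPC (50.2%). The median changes of the members were 0.19, 0.13, 0.13 and -0.0034. Members of a type are counted in the same libraries, so they are not separate observations of the genotype. The summed level of the 44 members in oligodendrocytes was 3621 ± 243 CPM in WT and 4024 ± 306 CPM in Chd8het, higher in Chd8het in 4 of 4 pairs. The 8 excitatory class markers, all with UMIs in these nuclei, summed to 438.6 to 588.5 CPM in WT and 553.6 to 728.4 CPM in Chd8het oligodendrocytes, higher in Chd8het in 4 of 4 pairs. Their ranges were 547.0 to 797.3 and 719.5 to 877.1 CPM in astrocytes, 978.2 to 1235.8 and 1092.2 to 1279.5 CPM in OPC, and 936.1 to 1254.4 and 1104.3 to 1233.9 CPM in microglia, each higher in Chd8het in 3 of 4 pairs and with overlapping groups. In microglia the members summed to 4701 ± 334 CPM in WT and 5487 ± 473 CPM in the other genotype. In astrocytes they summed to 4885 ± 190 CPM in WT and 5080.5 ± 286 CPM in Chd8het, higher in Chd8het in 3 of 4 pairs and with overlapping groups. The 6 inhibitory class markers summed to 4393.5 ± 594 CPM in WT and 4329.7 ± 391 CPM in Chd8het oligodendrocytes, higher in Chd8het in 2 of 4 pairs. In astrocytes those 6 summed to 145 ± 22 and 200 ± 87 CPM, higher in Chd8het in 3 of 4 pairs. The part of RNA from neurons in the member sums of glia was not tested with either marker list.

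**Figure D5:**
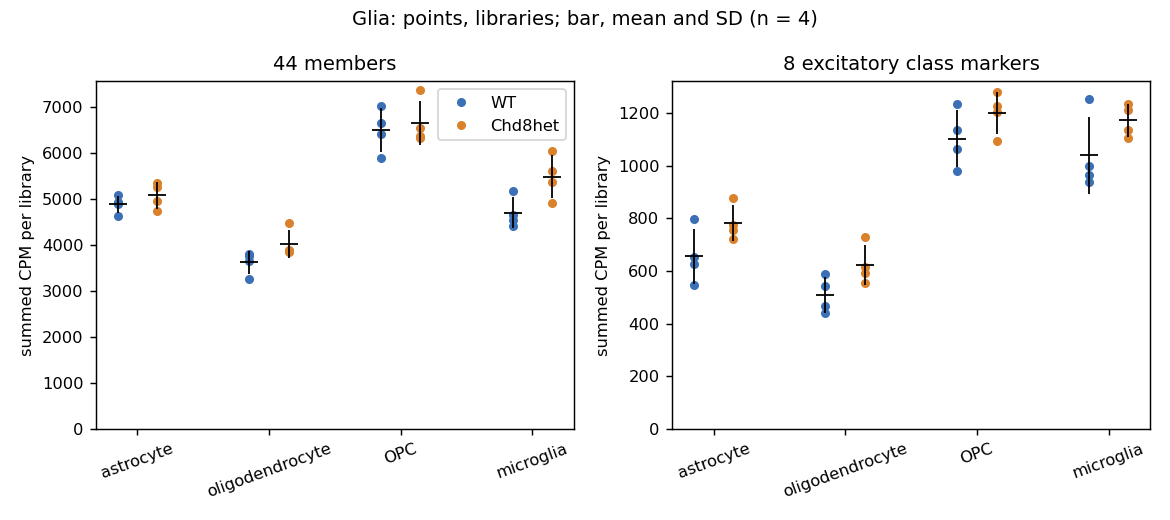
Summed CPM of the 44 members (left) and of the 8 excitatory class markers (right) in each glial type. Points are libraries (blue WT, orange Chd8het) and bars are means with SD (n = 4). In oligodendrocytes the member means are 3621 CPM in WT and 4024 CPM in Chd8het.

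Isoform shares did not differ by genotype past adjustment. Of 24 tests, 0 passed (exact permutation test of 4 against 4 libraries, two-sided; its smallest p is 0.0286, which limits what adjustment over 24 tests can pass), and 1 had an unadjusted p under 0.05. That 1 was the share of Syt2 over interneuron types, 1.53% ± 0.048 in WT and 1.74% ± 0.028 in Chd8het (SD, n = 4; exact permutation p = 0.0286, adjusted p = 0.549), higher in Chd8het in 4 of 4 pairs. In 6 more of the 24 all 4 pairs differed in one direction (exact permutation test, adjusted p of 0.549 to 0.857). Cplx1 and Stxbp5l over interneuron types were higher in Chd8het, and Sv2c and Doc2b were lower over both interneuron and excitatory types. With Syt2, one-way pairs made up 29.2% of the 24 tests (12.5% all higher, 16.7% all lower), where Sv2c and Doc2b each counted in both classes. Among all genes with at least 80 UMIs in a type, 13.8% had one-way pairs. Those are levels of single genes within a type, whereas the shares were averaged over types. No background of shares was computed, so the 29.2% has no like reference.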

How the data were processed

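The authors deposited whole-number UMI counts per barcode and gene for 8 libraries. The submitters' processing notes name mm10, STAR 2.7.9a, STARsolo and Cell Ranger without roles; neither strand handling nor the treatment of intron reads is stated, and 30 of the 44 members overlap another gene in GENCODE M21 (GRCm38), so reads of such neighbours may not be separable. Nuclei with at least 500 genes and at most 5% mitochondrial UMIs were kept, and 4278 predicted doublets (5.21%, Scrublet) were removed. The marker lists were set at the start, but the scoring margins of the gate were adjusted after the first assignments had been seen, as was the limit of 50% of nuclei in clusters of another name, and 40057 nuclei stayed without a type. UMIs were summed per library and type. CPM are counts scaled to 1000000 UMIs of those nuclei. Genotype was fitted with edgeR 4.0.16 (sex and genotype, filter with a minimum count of 10), types in 1 fit with library as a term, both with Benjamini-Hochberg (BH) adjustment over all genes of a fit. Both fits were tested on simulated data. For isoform shares, a type with no UMI of a family in any 1 library was left out of that family's mean in all libraries; this rule was made after seeing that the Doc2 family had such cases.

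Values per library are given in the highest neuron type, with the range in the lowest, for members with a 4-fold range over neuron types and at least 20 CPM in the highest, and per library for the 6 smallest genotype p-values. The members and lists were chosen with earlier results of these data known. Replicate libraries differed by more than sampling noise (chi-square per degree of freedom 2.88 to 23.2). Among the values listed per library, single-indexed and dual-indexed libraries did not overlap for Syt17 in L2/3 IT, Syt7 and Slc17a7 in L6 CT, and Unc13b in L5/6 NP. The alternatives were DESeq2 1.42.0, its size factors, no count filter, a replicate block, index type, doublets kept, a stricter nucleus filter or gate, types from clusters, WT libraries only and each library left out.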

Additional observations from a re-analysis of the deposited data

Results flagged for a closer look

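Syt6 in L6 CT stood apart in 1 library: Chd8het male 2 had 253 CPM, while the other 3 Chd8het libraries had 95.7 to 105 CPM. Of 56 groups of 4 libraries examined in this way, 1 was so marked, and chance marks about 5%. Among the WT libraries, WT male 2 was likewise the highest for Syt6 in L6 CT, followed by WT female 2. Chd8het female 2, also dual-indexed, was the lowest of the Chd8het libraries.

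Unc13c and Syt9 had differences of opposite sign in different types, each in all 4 pairs; none passed adjustment and the differences between types were not tested. All 4 pairs had one direction in 73 of 567 member tests (12.9%; 9.7% all higher and 3.17% all lower), beside 13.8% of all genes with at least 80 UMIs in a type (8.11% and 5.71%). Unc13c was higher in Chd8het in every pair in L5 ET (log2 change 0.91, and 0.027 with types from clusters) and in Sst interneurons (0.22), and lower in every pair in microglia (-0.36). Syt9 was higher in every pair in L4/5 IT (0.46), L5/6 IT (0.87), L5/6 NP (1.22) and L6 CT (0.64), and lower in every pair in OPC (-0.11).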

How the results depend on the processing

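The counts of members at least 2-fold different between types stayed within 1.5 times of the reported value under the other scaling, filters, gates and left-out libraries. With a fold limit of 4 they were 3 (interneuron against excitatory types), 5 (Pvalb against Sst), 5 (Vip against Lamp5 and Reln), 3 (deep non-IT against IT) and 6 (neuron types against glia), each of 44 members. Over all genes tested, 4.47%, 3.44%, 3.03%, 0.744% and 10.7% passed that limit, in the same order. The 4-fold count between Vip and the Lamp5 and Reln interneurons moved to 9 without Chd8het male 2 (3.42% of all genes). It moved to 8 with types from clusters (3.6%) or with WT libraries only (3.22%). At the 2-fold limit, leaving out each library gave 11 to 12, 12 to 13, 11 to 13, 6 to 6 and 27 to 27. Cplx3 reversed in the deep non-IT against IT contrast under the stricter gate (-0.29), where L6b was not fitted. In 26 further cases a member fell below the limit or the threshold; 11 of these concern Doc2b in Vip against Lamp5 and Reln interneurons, whose adjusted p of 0.0409 exceeded 0.05 in them, and Unc13c in that contrast was -0.15, no longer past the threshold, with types from clusters. Isoform shares called between interneuron and excitatory types numbered 11 to 11 and between Pvalb and Sst 7 to 8 with libraries left out; with WT libraries only both were 0, because the exact sign-flip test over 4 libraries cannot go below p = 0.125. Genotype calls of shares were 0 to 0.

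Tests of a gene in a type called by genotype numbered 183 with no count filter, 38 with the block of sex and replicate number and 29 with index type. They numbered 2 with types from clusters, 4 with DESeq2 and 0 to 4 with a library left out. A gene called in several types counts once for each. With no count filter, 2 of 660 member tests were called, beside 183 of 340516 tests over all genes. They were Synpr in Pvalb interneurons (log2 change -0.75, edgeR, adjusted p = 0.0174) and Syt6 in Lamp5 and Reln interneurons (1.63, edgeR, adjusted p = 0.0362). Members called were 0 in every other setting, with 0 to 0 on leaving out libraries. For the block, same-numbered libraries of a sex deviated together with correlations of 0.0442 to 0.602, over 0.1 in 58 of 60; both exceptions were in L6b. No label ties a library to its litter partner, and the replicate number coincides with index type. With the block over the 4 pairs, 0 genotype shares passed, and the exact p cannot go below 0.125.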
